A study of Mus musculus with 7 samples.

Results

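Transcripts of 7 genes of neurotrophin signalling (Bdnf, Ntf3, Ntrk2, Ntrk3, Ngfr, Sort1 and Vgf) were examined in the medial prefrontal cortex of mice. They were taken by symbol from the authors' deposited table of 17732 genes, which listed all 7. The mice were wild-type males of the inbred strain 129SvEv, and the tissue was collected after a remote memory was retrieved. Libraries of polyadenylated RNA were made for 2 groups, 3 libraries labelled CFC and 4 labelled SC. What these names stand for and the age of the mice are not in the labels, which also do not say whether each library came from a separate animal, so the p-values measure the spread between libraries. The question that the series' title and design raise for these genes is whether their transcripts differed between the groups.

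The table gives, for each gene, a mean normalized count over the libraries, a log2 fold change between the groups, its standard error and p-values. Neither the table nor the labels say which group is the numerator, so a difference is called positive or negative and no group is called higher. Values of single libraries were not analysed here. The standard error of the log2 fold change is the measure of uncertainty used, and it does not show how single libraries scatter. In bulk tissue, fewer cells of a type and less RNA per cell cannot be told apart.

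Neurotrophins are secreted growth factors that are made as larger precursors and cleaved to the mature form. The mature factors act through receptor tyrosine kinases of the Trk family: Bdnf is the main ligand of Ntrk2 in cortex, and Ntf3 is the preferred ligand of Ntrk3. Ngfr binds all neurotrophins and, together with the sortilin encoded by Sort1, binds their precursors. In cortex Bdnf is transcribed and released with neuronal activity and is known for its part in synaptic plasticity, and Vgf encodes a secreted peptide precursor that neurotrophins and activity induce.

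No difference between the groups passed the threshold of the deposited Wald test in any of the 7 genes. Of the 5 with an adjusted p-value, 0 were under 0.05, against a background of 0.513% of the 13060 genes tested. Before adjustment, 0 of 7 were under 0.05, where the share was 6.82% of all genes with a p-value and 8.1% of the genes tested (4.56% positive and 3.54% negative). The log2 fold changes of those 5 ran from -0.097 for Vgf to 0.058 for Ntrk2 in the authors' deposited table. For 4 of them, Ntrk2, Ntrk3, Sort1 and Vgf, the 95% interval of the fold lay wholly within a 1.2-fold change in either direction.

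Bdnf (ENSMUSG00000048482) lies on the plus strand of chromosome 2, from 109674700 to 109727007 in GENCODE M21 on GRCm38. The annotation holds 11 complete coding transcripts from 9 different start sites, and 9 of the 11 share a reading frame of 249 codons. The count of the gene pools all of them, so a shift from one start site to another would not show in it. The stretch printed here was chosen because it is the one among 7 RefSeq windows of Bdnf that holds CGTCA, the core letters of the cyclic AMP response element, which Creb1 is known to bind. It covers the 250 bases before a RefSeq start site at 109692436, where Bdnf-209 also begins, at chr2:109692186-109692435 (GRCm38.p6, plus strand), and overlaps no annotated Bdnf exon. Capitals mark this core, which starts 35 bases before the start site.
Bdnf, before the Bdnf-209 start: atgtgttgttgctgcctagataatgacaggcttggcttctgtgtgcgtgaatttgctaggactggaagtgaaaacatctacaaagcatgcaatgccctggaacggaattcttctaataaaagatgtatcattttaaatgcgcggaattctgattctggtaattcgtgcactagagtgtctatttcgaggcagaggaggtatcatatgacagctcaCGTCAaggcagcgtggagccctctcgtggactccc

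The core was searched as CGTCA on both strands, in windows of 250 bases before to 50 bases after each start, and 20.8% of the 32851 RefSeq windows hold it. The full palindrome TGACGTCA, which contains the core on each strand, is in 1.79% of the windows and in none of the 7 of Bdnf. Of the 7 genes, 4 had a window in the RefSeq table (Bdnf, Ntf3, Ngfr and Ntrk2), and Bdnf was the only one of the 4 with the core. Of the genes with the core in a window, Bdnf included, 3676 were tested. The authors' deposited table called 15 of them at an adjusted p-value under 0.05 (0.408%), beside 47 of 10349 genes with any window (0.454%). The median log2 fold change of the 3676 genes was -0.00059, with 1831 positive and 1845 negative. Among genes with the full palindrome, a set without Bdnf, 2 of 378 tested were called in the authors' deposited table (0.529%). The median log2 fold change of the 378 genes was -0.01, with 174 positive and 204 negative, computed from the authors' deposited table. A match describes the letters of a window and not a bound site.

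The authors' deposited table gave Bdnf a mean normalized count of 373 and a log2 fold change of -0.065 ± 0.12 (SE) (adjusted p = 0.999). The fold was 0.956 with a 95% interval from 0.817 to 1.12, computed from that table, so the data leave room for modest changes of either sign. At this standard error a log2 fold change of 0.42, or 1.34-fold, would have been the smallest placed under the threshold. Exons of Bdnf share 896 bases with the antisense gene Gm45346 in GENCODE M21, and without a stated strand setting their reads cannot be told apart.

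Ntf3 (ENSMUSG00000049107; chromosome 6, 126101412 to 126166910, minus strand, GRCm38) was barely detected, with a mean normalized count of 19.8 in the authors' deposited table. In the authors' deposited table its log2 fold change, -0.65 ± 0.51 (SE), was the one farthest from 0 among the 7 genes (unadjusted p = 0.202). The 95% interval, from -1.65 to 0.35, spans 0 and allows a fold from 0.318 to 1.27. No adjusted p-value was given, as for all 4669 genes with a mean count of 34.8 or less. At this low mean count and large standard error the difference was not resolved.

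Ntf5, a second ligand of Ntrk2, was also scarce, at a mean normalized count of 7.35. The authors' deposited table gave it a log2 fold change of -0.59 ± 0.67 (SE) (unadjusted p = 0.378). Per kb of exon, the mean normalized count was 60.0 for Bdnf, 11.5 for Ntf3 and 2.77 for Ntf5.

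Among the receptors, Ntrk2 (ENSMUSG00000055254; chromosome 13, 58806569 to 59133970, plus strand, GRCm38) had a mean normalized count of 16064 in the authors' deposited table, in the 99.5th percentile of all listed genes. The difference between the groups was small, with a log2 fold change of 0.058 ± 0.063 (SE) in the authors' deposited table (adjusted p = 0.984). The fold was 1.04 with a 95% interval from 0.956 to 1.13. GENCODE M21 annotates 7 complete coding transcripts of Ntrk2, 2 with 821 codons and 5 with 466 to 492 codons. The long form carries the kinase and the short forms are the truncated receptor, which in brain is known to be abundant in astrocytes. The gene count adds them, so opposite changes of the long and short forms would cancel in it.

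Ntrk3 (ENSMUSG00000059146; chromosome 7, 78175959 to 78738012, minus strand, GRCm38) had a mean normalized count of 7794 in the authors' deposited table. Of the 7 genes it had the log2 fold change nearest to 0, at -0.0098 ± 0.055 (SE) in the authors' deposited table (adjusted p = 0.999). The fold of 0.993 had a 95% interval from 0.921 to 1.07, the second narrowest of the 7 on the log2 scale after that of Sort1. Of its 4 complete coding transcripts, 1 has 612 codons and 3 have 825 to 864 codons, and again the count adds them. The plot of coding lengths shows the gap between the forms of both Trk genes.

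**Figure D1:**
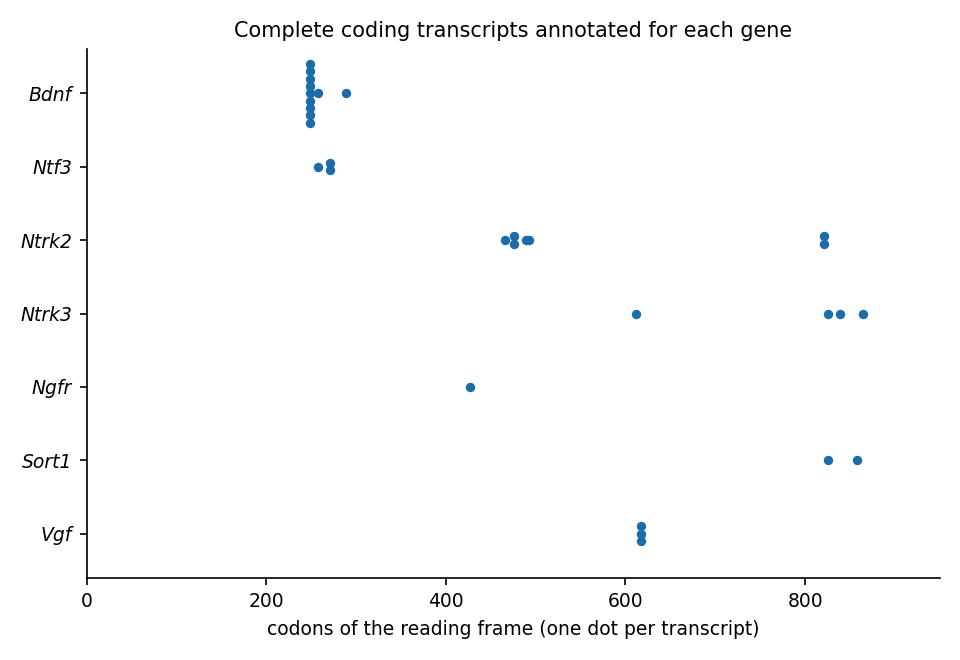
Codons of the reading frame (x axis) of each complete coding transcript in GENCODE M21, for the 7 genes (y axis), with 1 dot per transcript and equal lengths stacked. Ntrk2 and Ntrk3 have separate groups of short and long reading frames, from 466 to 821 codons and from 612 to 864 codons, while 9 of the 11 dots of Bdnf stand at 249 codons.

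Ngfr (ENSMUSG00000000120; chromosome 11, 95568818 to 95587735, minus strand, GRCm38) is in adult forebrain known mainly from basal forebrain cholinergic neurons. It had a mean normalized count of 14.0 in the authors' deposited table, below the limit for an adjusted p-value. The log2 fold change of 0.16 ± 0.47 (SE) in the authors' deposited table was not resolved (unadjusted p = 0.743). The 95% interval of the fold, from 0.584 to 2.12, excludes neither a loss nor a gain. The 4 genes listed as cholinergic markers were Chat, Slc5a7, Slc18a3 and Slc17a8, of which Slc17a8 is not specific to cholinergic neurons. Their mean normalized counts ran from 5.37 to 115 in the authors' deposited table, with Chat at 9.44 and 2 of the 4 under 10. All 4 were positive. Of the 2 with an adjusted p-value, 0 were called and 1 was under an unadjusted 0.05 by the deposited Wald test (50%, against 8.1% of all genes tested). That marker, the choline transporter Slc5a7, stood at a log2 fold change of 0.72 ± 0.30 (SE) in the authors' deposited table (adjusted p = 0.430), and the part of these markers in the value of Ngfr was not tested.

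Sort1 (ENSMUSG00000068747; chromosome 3, 108284082 to 108361511, plus strand, GRCm38) encodes sortilin, a receptor that also sorts cargo, Bdnf included, inside the cell. Its mean normalized count was 13105 in the authors' deposited table. For the log2 fold change, the authors' deposited table gave -0.012 ± 0.054 (SE) (adjusted p = 0.999). The fold of 0.992 had a 95% interval from 0.921 to 1.07. Exons of Sort1 share 338 bases with the antisense gene Gm12523 in GENCODE M21, and their reads cannot be told apart without the strand setting.

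The relatives of Sort1 that share its ligand-binding domain were compared beside it. Sorl1, Sorcs1 and Sorcs2 stood at 0.0093, -0.049 and 0.034 on the log2 scale of the authors' deposited table (adjusted p = 0.999, 0.994 and 0.999). Sorcs3 was further from 0, at a log2 fold change of -0.25 ± 0.099 (SE) in the authors' deposited table, with p = 0.0121 before the authors' adjustment by Benjamini-Hochberg and 0.389 after it, above the threshold. Its 95% interval, from -0.44 to -0.055, excluded 0 before adjustment, unlike those of Sort1, Sorl1, Sorcs1 and Sorcs2, but the differences between these genes were not tested.

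Vgf (ENSMUSG00000037428; chromosome 5, 137026392 to 137033351, plus strand, GRCm38) had, in the authors' deposited table, a mean normalized count of 3164 and a log2 fold change of -0.097 ± 0.059 (SE), with p = 0.0983 before adjustment and 0.816 after it. The unadjusted value was the smallest of the 7 genes, and 1947 other genes of the table had a smaller one. The fold of 0.935 had a 95% interval from 0.863 to 1.01, so a change of more than 1.2-fold in either direction lies outside it. All 3 complete coding transcripts of Vgf have the same reading frame of 617 codons.

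Levels were compared between the genes per kb of annotated exon, because a long transcript gives more fragments. Sort1 had the highest mean normalized count per kb, 1731, followed by Vgf at 1064, Ntrk2 at 833 and Ntrk3 at 258. Bdnf, at 60.0, lay near the median of 63.7 over all listed genes, and Ntf3 at 11.5 and Ngfr at 4.05 lay below it. With the length of the longest complete coding transcript in place of all exons, Ntrk2 came to 1837 per kb and passed Vgf at 1116, with Sort1 at 1917, Ntrk3 at 396 and Bdnf at 87.5. Between these lengths only the order of Vgf and Ntrk2 changed. The complete coding transcripts of Ntrk3 ran from 2678 to 19703 bases. Levels by the shorter transcripts of each gene were not computed, so the order under them is unknown. The spread of these levels between libraries was not analysed here, so no difference between neighbours was tested.

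**Figure D2:**
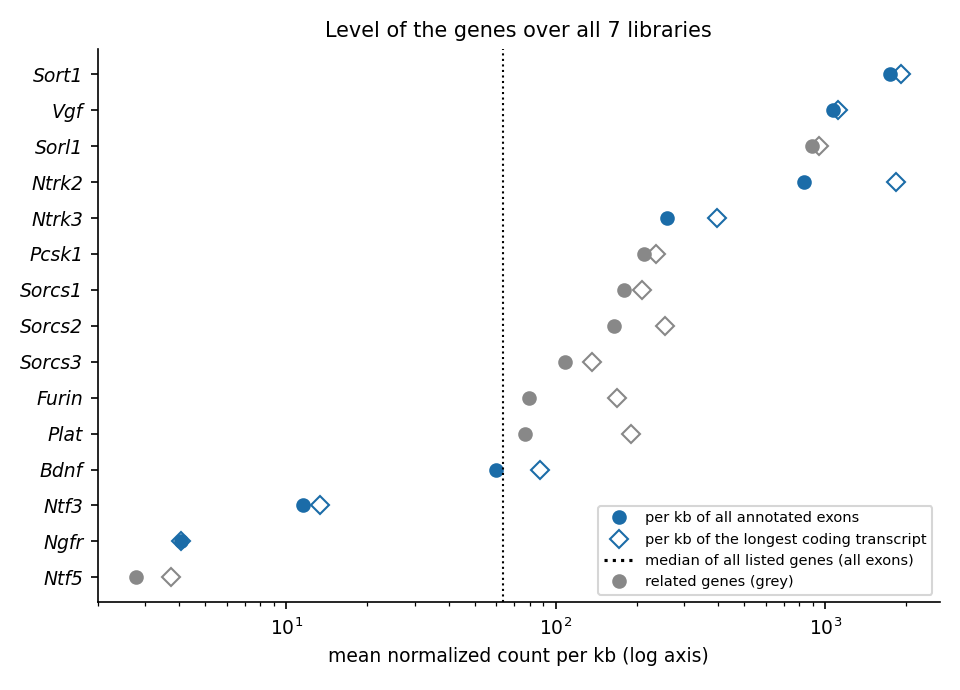
Mean normalized count per kb over the libraries (x axis, log scale) for the 7 genes (blue) and 8 related genes (grey), by length of all annotated exons (filled circles) or of the longest coding transcript (open diamonds). Sort1, Vgf, Ntrk2 and Ntrk3 lie to the right of the dotted median of all genes, 63.7, and Ntf3 and Ngfr to its left.

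**Figure D3:**
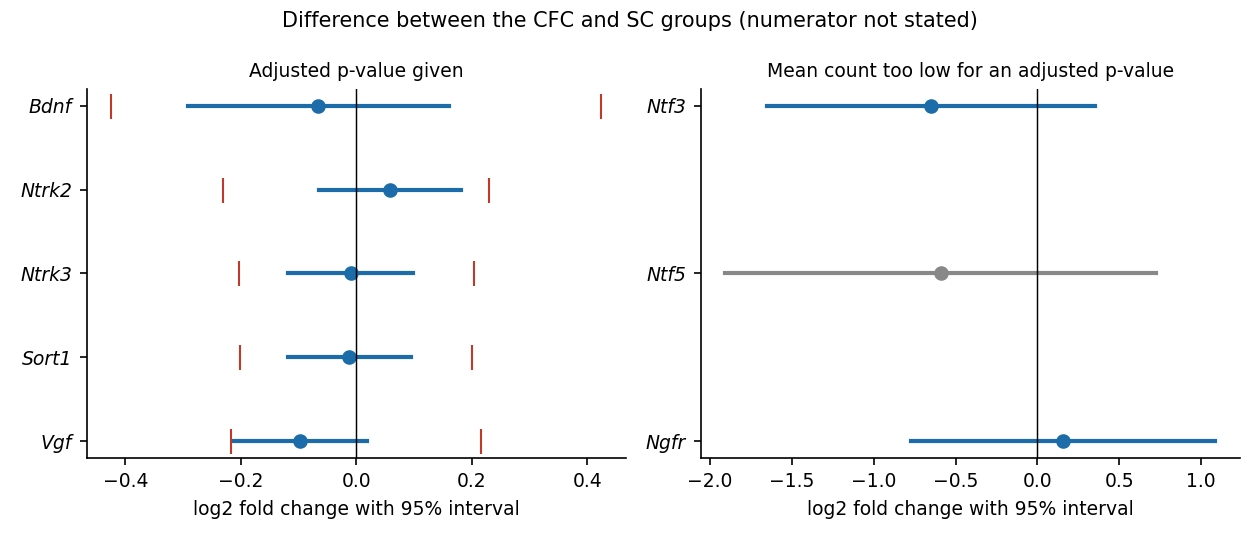
Log2 fold change between the groups (x axis) with its 95% interval for 5 genes with an adjusted p-value (left; red ticks mark the smallest difference that would have been under the threshold) and for 3 scarce genes without one (right, wider axis), with Ntf5 in grey. Every interval crosses 0, and on the left none of the values reaches a red tick.

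The errors of the 7 genes were those usual for their abundance. The standard error divided by the running median of genes of similar mean count was between 0.949 for Ntrk3 and 1.25 for Ntf3, computed from the authors' deposited table. At their errors, differences of 1.17-fold for Ntrk2, 1.15-fold for Ntrk3, 1.15-fold for Sort1 and 1.16-fold for Vgf would have been called. For Ntf3 and Ngfr the same Wald statistic would have needed 3.68-fold and 3.36-fold. Bdnf lay between these extremes, as the plot of precision against abundance shows.

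**Figure D4:**
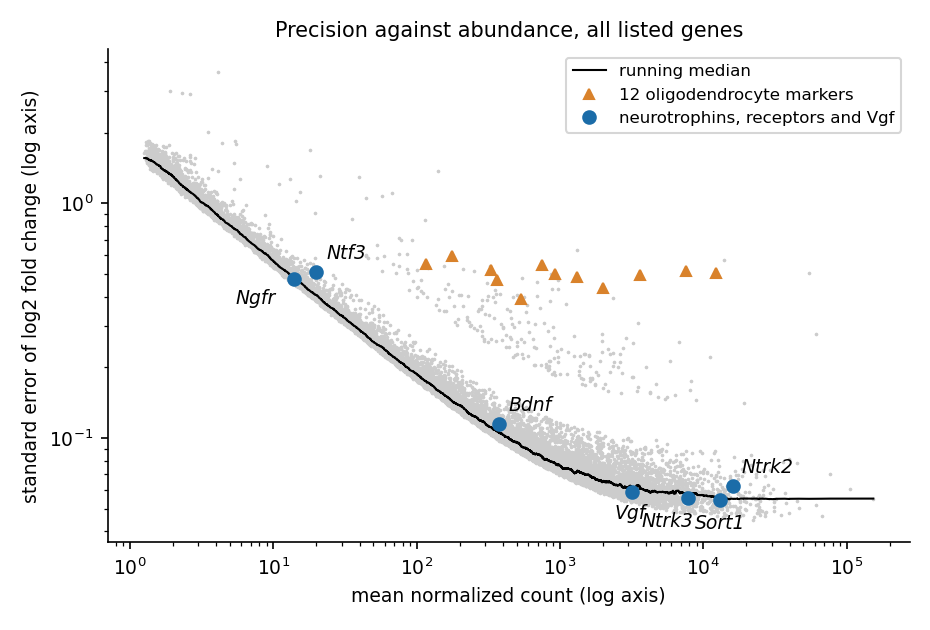
Standard error of the log2 fold change (y axis, log scale) against mean normalized count (x axis, log scale) for all listed genes (grey), with the running median of 201 genes (line), the 7 genes (blue circles) and 12 oligodendrocyte markers (orange triangles). The blue circles follow the line, with ratios from 0.949 to 1.25, while the markers lie above it, at a median ratio of 6.49.

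Genes that process and clear neurotrophin precursors were set beside the ligands. Of 11 listed ligand and protease genes, 6 had an adjusted p-value and 0 of these were under 0.05 by the deposited Wald test. Before adjustment 1 was under 0.05 (16.7%, against 8.1% of all genes tested), the proprotein convertase Pcsk6, at a log2 fold change of 0.37 ± 0.15 (SE) in the authors' deposited table (adjusted p = 0.416). Pcsk5, another convertase, and Serpini1, an inhibitor of tissue plasminogen activator, stood at 0.24 and 0.15 on the same scale in the authors' deposited table (adjusted p = 0.685 and 0.690). Furin, which cleaves neurotrophin precursors, had 0.047, the granule convertase Pcsk1 had 0.12 and Plat, the plasminogen activator itself, had -0.05 on the log2 scale of the authors' deposited table. The list had 5 positive and 1 negative genes and a median log2 fold change of 0.14, beside -0.0017 over all genes tested.

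Receptor relatives and partners gave 0 of 13 genes under an adjusted p-value of 0.05 by the deposited Wald test and 4 under an unadjusted 0.05 (30.8%, against 8.1% of all genes tested), 2 positive and 2 negative. Beside Sorcs3 these were Maged1 and Bex3, which bind the intracellular part of Ngfr, and Lingo1, a co-receptor of Ngfr. The authors' deposited table placed them at log2 fold changes of 0.13, 0.13 and -0.11 (adjusted p = 0.554, 0.623 and 0.561). The median log2 fold change of the 13 genes was 0.0093.

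Downstream of the Trk receptors, 0 of 44 adaptor and kinase genes were under an adjusted p-value of 0.05 by the deposited Wald test, with 22 positive, 22 negative and a median log2 fold change of -0.00097. Before adjustment 2 were under 0.05 (4.55%, against 8.1% of all genes tested). These were Sos1, an exchange factor for Ras, and the kinase Akt2, at 0.16 and -0.17 on the log2 scale of the authors' deposited table (adjusted p = 0.445 and 0.488). Of 11 genes of receptor trafficking and turnover, 0 were under the adjusted threshold by that test and 3 under an unadjusted 0.05 (27.3%, against the same 8.1%). They were Gipc1, an adaptor protein of receptor trafficking, and the ubiquitin ligases Cbl and Nedd4, at -0.18, 0.15 and 0.11 on the log2 scale of the authors' deposited table (adjusted p = 0.391, 0.613 and 0.647).

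Regulators of the Bdnf gene gave 0 of 20 genes under the adjusted threshold by the deposited Wald test, 10 positive and 10 negative, and 3 under an unadjusted 0.05 (15%, against 8.1% of all genes tested). Crtc1, a coactivator of Creb1, was the nearest of the 20 to the threshold, at a log2 fold change of -0.19 ± 0.058 (SE) in the authors' deposited table (adjusted p = 0.137). Kcnip3, a calcium-binding repressor, and Arnt2, the partner of Npas4, stood at 0.18 and -0.14 on that scale in the authors' deposited table (adjusted p = 0.430 and 0.447). Creb1, named after its value had been seen, stood at 0.031 on that scale in the authors' deposited table. The median log2 fold change of the 20 genes was 0.00066.

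Vgf is stored in dense-core granules, and genes of other proteins of these granules were set beside it. Of 15 such genes, 0 were under the adjusted threshold by the deposited Wald test, 4 were positive and 11 negative, and the median log2 fold change was -0.028. Before adjustment 1 was under 0.05 (6.67%, against 8.1% of all genes tested), the granule release factor Cadps2, at a log2 fold change of 0.22 ± 0.098 (SE) in the authors' deposited table (adjusted p = 0.515). The peptide-amidating enzyme Pam and the convertase inhibitor Pcsk1n stood at -0.12 and -0.11 on the same scale in the authors' deposited table (adjusted p = 0.703 and 0.763).

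Growth factors of other families gave 0 of 12 genes under the adjusted threshold by the deposited Wald test, against 0.513% of all genes tested. Before adjustment 0 were under 0.05, against 8.1% of all genes tested, and the median log2 fold change was -0.055. The smallest unadjusted p-values of their list were 0.0864 for Fgf2, 0.089 for Gdnf and 0.0909 for Mdk in the authors' deposited table. Their log2 fold changes were -0.31, 1.66 and 0.37 there. Gdnf, at a mean normalized count of 4.05, had no adjusted p-value and is not among the 12.

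Activity-induced genes, the class to which Bdnf and Vgf belong, held 1 called gene among 23. Nr4a3, an inducible nuclear receptor, was positive at a log2 fold change of 0.42 ± 0.095 (SE) in the authors' deposited table (adjusted p = 0.00643). The 1 called gene is 4.35% of the list, against 0.513% of all genes tested. Before adjustment 5 positive and 2 negative genes were under 0.05 (30.4%, against 8.1% of all genes tested), and the median log2 fold change of the list was 0.01. The intervals of Bdnf and Vgf, up to log2 fold changes of 0.16 and 0.018, did not reach the 0.42 of Nr4a3 (interval from 0.23 to 0.60). A difference between the genes was not tested, and Nr4a3, the only called gene, does not stand for its list. The 23 genes ran from -0.33 to 1.06, with 14 positive and 9 negative. Bdnf at -0.065 and Vgf at -0.097 lay within that range. Over all 8 lists together, 139 of 150 genes had an adjusted p-value, 1 was called, and 21 (15.1%, against 8.1% of all genes tested) were under an unadjusted 0.05.

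Markers of several cell types and layers in the tissue had log2 fold changes farther from 0 than the neurotrophin genes with an adjusted p-value. Excitatory neuron markers were abundant in the authors' deposited table, with mean normalized counts from 2316 for Neurod6 to 106077 for Camk2a. Of these 5 markers 3 were positive and 2 negative. The deposited Wald test called 1 (20%, against 0.513% of all genes tested), the kinase gene Camk2a. Its log2 fold change was -0.29 ± 0.061 (SE) in the authors' deposited table (adjusted p = 0.0015). All 12 markers of mature oligodendrocytes had positive log2 fold changes, from 0.95 to 1.67. By the deposited Wald test 0 were under the adjusted threshold and 12 under an unadjusted 0.05 (100%, against 8.1% of all genes tested). All 11 deep-layer markers were positive, from 0.092 to 2.10, with 5 called (45.5%, against 0.513% of all genes tested), in the authors' deposited table. All 8 upper-layer markers were negative there, from -0.42 to -0.081, with 2 called (25%, against the same 0.513%). All 8 striatal markers were positive, from 0.044 to 1.95, with 1 called (12.5%, against the same 0.513%), in the authors' deposited table. Of 8 astrocyte markers, 0 were called and 1, a negative one, was under an unadjusted 0.05 (12.5%, against 8.1% of all genes tested). They were positive for 2 and negative for 6 on the log2 scale of the authors' deposited table, from -0.15 to 0.56 (Gfap) with a median of -0.079, beside 0.058 for Ntrk2. The part of these shifts in the values of the 7 genes was not tested.

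**Figure D5:**
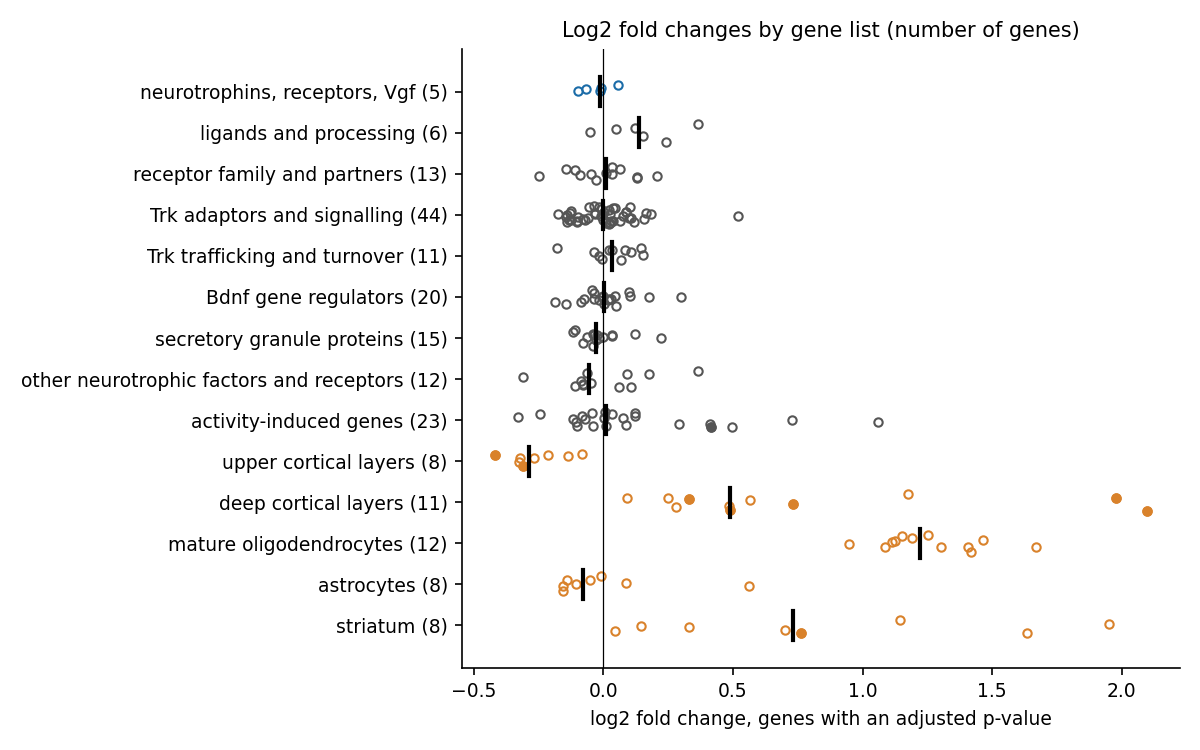
Log2 fold change (x axis) of each gene with an adjusted p-value, for the neurotrophin genes and Vgf (blue), 8 lists of related genes (grey) and 5 lists of cell type and layer markers (orange), with filled circles for an adjusted p-value under 0.05 and a black bar at each median. The 5 blue circles lie between -0.097 and 0.058, while the oligodendrocyte markers lie between 0.95 and 1.67.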

How the data were processed

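Per the labels' protocols, the RNeasy Micro kit served for extraction and the KAPA mRNA HyperPrep kit for the libraries. The submitters' processing notes name Trimmomatic, Subread, DESeq2 and the build mm10. Versions, annotation and strand setting are not given in the sources used here. The authors deposited a single table. Per the file headers it holds a mean normalized signal (counts over size factors, averaged over 7 libraries), a log2 fold change with its standard error, the Wald score, and unadjusted and adjusted p-values. It gives no totals per library, so depth is unknown, and an adjusted p-value is given for 13060 genes, all with a mean of 34.9 or more. The words genes tested mean these 13060. For Vgf, Benjamini-Hochberg adjustment of the Wald p-values over them alone gave 0.777, against 0.816 as deposited. The deposited adjustment was therefore not made over this set alone.

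The deposited Wald test was used as it stands, two-sided, and a gene was called at an adjusted p-value under 0.05. The Wald score equals the log2 fold change over its standard error, and the p-value its normal probability. Intervals of 95% were computed from the log2 fold change, its standard error and the normal quantile. The smallest difference that would be called is the standard error times 3.68, the smallest absolute Wald score among the called genes. Running medians of the standard error took 201 genes of nearest mean count. Exon lengths came from GENCODE M21 on GRCm38, which held 17726 of the 17732 Ensembl IDs, and promoter windows from RefSeq on GRCm38.p6. Where a symbol had several IDs, the one with the highest mean was used in the lists. Calculations used Python 3.11.15, numpy 2.4.6, scipy 1.17.1 and pandas 2.3.3, and the adjustment and interval code was tested on simulated data.

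The 7 genes, the lists and the tests were chosen with earlier results of these data known. The text names all 7 genes, 8 fixed relatives, and of each list the called genes or otherwise the 3 with the smallest unadjusted p-value, with others under 0.05 named after their values were seen. Genes of like pattern across libraries were not looked for, since that needs values per library. Some genes that this rule would name are not reported here.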

Additional observations from a re-analysis of the deposited data

How the results depend on the processing

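None of the 7 genes was called under any of the 7 alternatives to the adjustment (0 in each), and the smallest adjusted p-value reached by any of them was 0.75, for Vgf when only genes with means of 100 or more were adjusted. Ntf3 and Ngfr had an adjusted p-value in 1 of these, with no filter on the mean count, at 0.999 each. Over the whole table the 67 called genes became 101 at a threshold of 0.1, 21 with Bonferroni, 2 against a null of a change of at most 1.2-fold, and 0 with a t distribution of 5 degrees of freedom in place of the normal, where 394 genes (3.02%) and 0 of the 7 had an unadjusted p-value under 0.05. The last 3 are stricter by construction. The other settings gave 60 to 69 genes. The adjustment over the listed genes only and the second length in the levels per kb were chosen after seeing the data. No paired analysis was possible because values per library were not analysed here, and leaving out a library, a replicate block and other count tests were not run for the same reason. Whether 1 library decides a value was not tested.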
